A study of Rattus norvegicus with 18 samples.

Results

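The histone genes of cultured rat mesenchymal stem cells (MSCs) were followed over 6 groups of libraries. The genes were taken by name, as every row of the deposited gene tables whose symbol begins with Hist and a digit, H2af, H1f or H3f. This gave 34 of the 32623 rows. They fall into 22 replication-dependent core histone genes (Hist symbols), 4 replication-dependent linker histone genes (H1f1, H1f2, H1f4 and H1f5), 4 replacement histone genes (H3f3a, H3f3b, H3f3c and H1f10) and 4 germ-line genes (H1f6, H1f7, H1f8 and H2afb3). The rule used names only, so no measured value chose a gene. Histone rows with other symbols, such as H2az1 and H2ax, were outside it.

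The MSCs came from the bone marrow of wild-type (WT) and miR-337-/- (KO) rats of the SD (Sprague-Dawley) strain at 2 months of age, and were cultured to passage 3. All groups had been starved of serum for 8 h. The starved cells (SSt) were kept without serum, the FBS group was given serum, and the CMS group received 10% cyclic mechanical stretch. The labels put all 3 treatments, SSt included, at 24 h. The study's methods give a shorter time for CMS and FBS, and the legend of its miRNA heatmap gives 24 h. Each of the 6 groups had 3 RNA-seq libraries. No source used here says that the 3 libraries of a group are from separate rats or cultures, and p-values cover only the spread among the libraries sequenced, which may be technical. WT and KO were deposited as 2 tables, and genotype cannot be told apart from table or run. How the libraries were prepared (poly(A) selection or depletion of ribosomal RNA) is not given in the sources used here.

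Histones are the proteins around which DNA is wrapped. Core histones H2A, H2B, H3 and H4 form the nucleosome, and linker histone H1 binds where the DNA enters and leaves it. The replication-dependent genes lie in clusters and are transcribed mainly in S phase, when new DNA has to be packed. Their mRNAs end in a stem-loop instead of a poly(A) tail and are bound there by SLBP, so a library made from polyadenylated RNA captures them poorly. Several of these genes can also give polyadenylated transcripts. Replacement histones such as H3.3, from the H3f3 genes, are made throughout the cell cycle from ordinary polyadenylated mRNAs and are deposited outside replication.

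The promoters of many H2B genes carry an octamer, ATTTGCAT, which is bound by the transcription factor Oct-1 and takes part in their S-phase transcription. RefSeq promoters of the GRCr8 assembly, from 250 bases before to 50 after the annotated start, could be matched by symbol, chromosome and strand to 16 of the 34 genes. RefSeq entries on the other strand than the table's, as for Hist1h3b, Hist2h2aa2 and Hist2h3c2, were not used. The octamer, searched on both strands, stood in 5 of these 16 promoters (31.2%), against 595 of all 33469 promoters (1.78%). The 5 were 3 of 5 matched H2B genes and both matched H2A genes. They include Hist1h2bq and Hist2h2be, whose levels moved in opposite directions in WT cells. The windows are shown 5′ to 3′ on the strand of the gene, with the octamer or its reverse complement in capitals. The first 3 carry it in the forward direction and the last 2 as the reverse complement.
Hist1h2bq, chr17:41869386-41869415, minus strand: ctgaaaacttcATTTGCATaattccaccca
Hist2h2be, chr2:186469394-186469423, plus strand: tttgagacctaATTTGCATaacatgtttat
Hist1h2bd, chr17:47489080-47489109, minus strand: ctttccactggATTTGCATaagagcgtgtc
Hist1h2af, chr17:41807782-41807811, minus strand: aataaactttgATGCAAATaagggacccaa
Hist1h2ah, chr17:41812250-41812279, plus strand: gagtacgccttATGCAAATgagggatttca

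A CCAAT box, letters common to many promoters, stood in 13 of the 16 matched promoters (81.2%) and in 37.5% of all promoters, with 6 of 8 matched H1 genes among them. The window of H1f2, the most abundant linker gene here, is shown with CCAAT in capitals.
H1f2, chr17:41820491-41820520, minus strand: gctgccggagcaCCAATcagcgcgcgcctg
TATAAA, the letters of the TATA box, was found in 8 of 16 matched promoters and in 14.2% of all promoters. In Hist1h2af and Hist1h2bo the only match was the reverse complement, at -232 and -236 from the start. The letters TTTGGCGC, a site of E2F factors, were in 0 of 16 and in 0.493% of all promoters. Each motif was searched on both strands, no motif contains another, and a match describes letters and not a bound site. No entry of RefSeq was used for Hist2h2aa3, Hist2h4a or H3f3c.

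The libraries held 56.08 to 71.85 M counts. The row of Mir337, the targeted gene, had a count of 0 in all 18 libraries, WT included, and so gave no check of the genotype. KO FBS replicate 1 stood apart: its mean correlation with the other libraries of its group was 0.977, against 0.982 to 0.989 for the other 17. Results whose call or size turned on KO FBS replicate 1 are given with and without it. KO CMS replicate 1 also differed from its group in the chi-square per degree of freedom between the counts of 2 libraries. This was 59.1 and 71.9 with replicates 2 and 3, and 26.1 between replicates 2 and 3. Of 11 MSC markers, 10 had a mean of at least 1 FPKM in every group, while Lepr, the receptor that the study uses to define these cells, stayed below 0.1 FPKM in all 6. By flow cytometry, which measures protein and not RNA, the study found nearly all of its cultured MSCs positive for LepR. Of 12 blood cell markers 11 were at or above 1 FPKM, with Cd3e, a T cell marker, below 0.1. Their summed level was 3686 to 3837 FPKM in WT SSt, 6286 to 6640 in WT FBS, 6038 to 6351 in WT CMS, 2216 to 2317 in KO SSt, 4122 to 5003 in KO FBS and 4089 to 4417 in KO CMS. Most of each sum was Lyz2, a lysozyme of macrophages, with group means of 2299, 4987 and 4841 FPKM in WT SSt, FBS and CMS and of 1517, 3230 and 3012 FPKM in KO. The 11 tested markers did not all go one way. Against SSt, 6 were higher and 3 lower in WT FBS, 5 higher and 4 lower in WT CMS, 8 higher and 2 lower in KO FBS, and 6 higher and 3 lower in KO CMS. In SSt, 2 were higher and 8 lower in KO than in WT. The part of blood cells in the results on histone genes was not tested. Of 3 endothelial markers none exceeded a mean of 1 FPKM outside KO FBS, where 1 did, and the 3 together never summed to more than 2.23 FPKM. In bulk RNA, a change in the share of cells that express a gene and a change in its level per cell cannot be told apart.

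A few of the 34 genes held most of their summed level. In FPKM, which divides counts by transcript length and library total, H3f3b led with a mean of 393 over the 18 libraries, followed by H3f3a with 156, H1f2 with 81.0, Hist1h2bq with 66.5 and H3f3c with 38.8. These 5 genes held 94.0% to 96.6% of the summed FPKM of the 34 genes in each library. Histone rows outside the name rule were not all low, and H2az1, which encodes the variant H2A.Z, averaged 86.6 FPKM, above H1f2. Among replication-dependent genes, Hist1h2bq and H1f2 held 79.3% to 87.3%. The next 5 genes, Hist2h2aa3, Hist2h2aa2, H1f10, Hist2h4a and Hist2h2be, averaged between 2.03 and 8.08 FPKM. The other 24 lay below 1 on average. In all, 17 genes never reached 1 FPKM in any library, and 2 germ-line genes, H1f7 (a spermatid linker histone) and H2afb3, had no count in any library, which allows at most 3 counts per library for each. H1f6, the testis linker histone, had 4 to 21 counts and H1f8, the oocyte linker histone, had 0 to 29. The plot of all 34 genes by level shows this order.

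**Figure D1:**
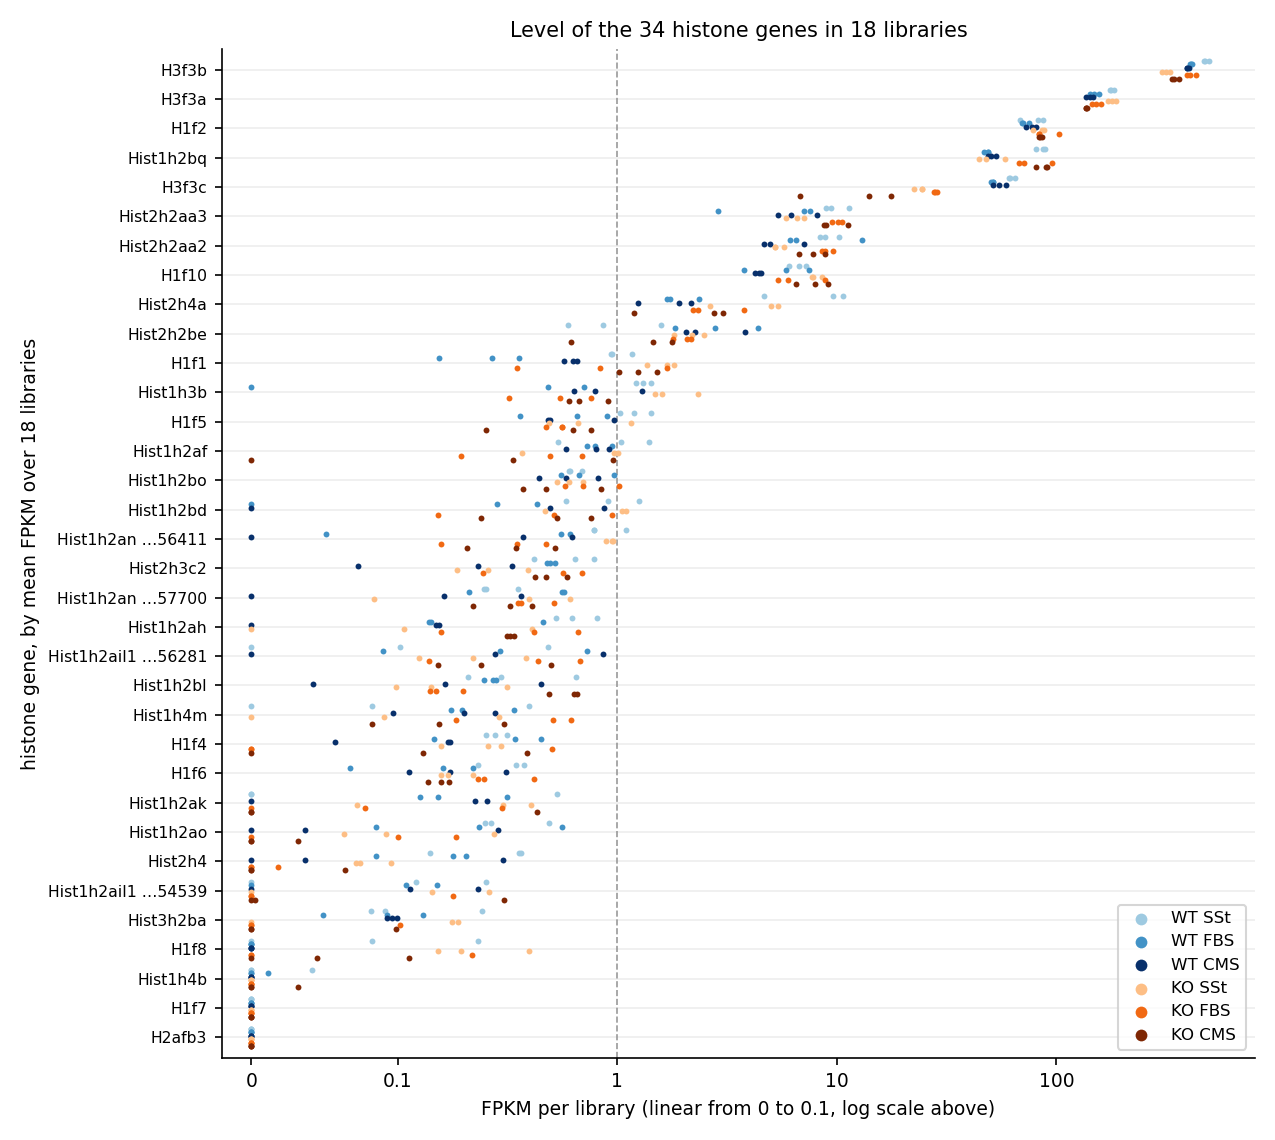
FPKM of each of the 34 histone genes in each of the 18 libraries (points, coloured by group), with genes ordered by their mean. The horizontal axis is linear from 0 to 0.1 FPKM and logarithmic above, and the dashed line marks 1 FPKM. The 5 genes at the top lie far to the right of the rest, apart from H3f3c in KO CMS, and 17 genes have every point left of the dashed line.

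FPKM depends on the transcript length behind it. The lengths implied by counts and FPKM were 423 nt for H3f3b and 1704 nt for H3f3a, so H3f3b had the higher FPKM while H3f3a had the higher count in each library (13230 to 22138, against 8218 to 14351). The table places H3f3b (ENSRNOG00000003220) on chromosome 13 and H3f3a (ENSRNOG00000006532) on chromosome 10, and RefSeq GRCr8 has these symbols the other way round. Both encode H3.3, and the symbols here are those of the table. Hist2h2aa2 and Hist2h2aa3 are near-identical neighbours on chromosome 2 that encode H2A, and H3f3c is a close copy of the other H3.3 genes, so reads may be split between copies and single values of these genes are uncertain. Of the 34 genes, 10 overlapped another row of the tables. Hist1h2bq (ENSRNOG00000021198) spans 9387 bp and overlaps AC130391, a protein-coding row on the opposite strand, and the strand setting of the counting is not given in the sources used here. The implied length of Hist1h2bq was 977 nt, against 396 nt for Hist2h2be, which also encodes H2B. Which transcripts the counts of Hist1h2bq hold was not tested.

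By class, the sum over replication-dependent core genes was 122 ± 8.51 FPKM in WT SSt (SD, n = 3 libraries, as for each value here), 72.8 ± 1.74 in WT FBS and 72.1 ± 2.0 in WT CMS. In KO cells the order was the opposite, with 75.6 ± 8.64 in SSt, 107 ± 16.8 in FBS and 113 ± 2.24 in CMS. No library of WT SSt overlapped with WT FBS or WT CMS, and none of KO SSt with KO FBS or KO CMS. Linker genes summed to 81.8 ± 9.79, 72.7 ± 2.9 and 78.1 ± 3.91 FPKM in WT SSt, FBS and CMS, and to 86.8 ± 4.71, 91.5 ± 12.2 and 86.5 ± 1.29 FPKM in KO. Replacement genes summed to 728 ± 13.8, 615 ± 4.23 and 596 ± 10.8 FPKM in WT, and to 526 ± 7.76, 597 ± 24.3 and 504 ± 16.8 FPKM in KO. Germ-line genes summed to at most 0.635 FPKM in a library. The sums describe the classes and carry no test, and they mostly follow the leading gene of each class. An exception was the replacement sum in KO, which was lower in CMS than in SSt. Its leading gene H3f3b was higher there, at means of 346 and 315 FPKM.

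Counts were then tested gene by gene with edgeR across all genes with at least 1 FPKM in at least 3 of the fitted libraries. This left 12 histone genes in WT, 12 in KO and 15 in the fit of all 18 libraries. The 15 were 8 core, 3 linker, 4 replacement and 0 germ-line genes. Hist1h2af and Hist1h2bd, tested only in the last fit, passed in no comparison. Of the genes left untested, Hist1h2bo and a row of Hist1h2an came closest, at up to 1.02 and 1.09 FPKM. A gene passed at a Benjamini-Hochberg adjusted p under 0.05, in either direction. H1f5 in WT and Hist1h3b in KO were tested only because their 3 SSt libraries reached 1 FPKM, so a lower level in FBS or CMS than in SSt was favoured by the filter for these genes. Hist2h2be in WT reached 1 FPKM in each FBS and CMS library and in 1 SSt library. A higher level in FBS and CMS than in SSt was thus favoured by the filter for Hist2h2be. H1f1 was tested in KO but not in WT, and it entered the fit of all 18 libraries mainly through KO libraries. A higher level in KO than in WT was thus favoured by the filter for this gene.

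The first comparison asked what serum did to histone mRNA in WT MSCs. Among the histone genes that passed, more fell than rose. Between FBS and SSt, 5 of the 12 tested histone genes were lower, 1 was higher and 6 did not pass, and of the 12916 genes tested 32.7% were lower, 33.7% were higher and 66.4% passed in either direction. Their median log2 fold change was -0.31, and 0.01 over all genes. With DESeq2, 9 of the 12 passed. Shares of all genes were taken for the main edgeR fits alone, here and below, so this count has none beside it. Those that fell were Hist1h2bq, Hist2h4a, H3f3b, H3f3a and H3f3c. The one that rose was Hist2h2be, for which the filter favoured a rise.

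Hist1h2bq encodes the core histone H2B. It was measured at 89.0, 86.5 and 80.7 FPKM in the 3 WT SSt libraries, at 48.7, 48.6 and 46.8 in FBS and at 52.9, 50.2 and 48.7 in CMS. Every SSt library was above every FBS and CMS library. The gene fell 1.82-fold in FBS (log2 -0.87 ± 0.0468 SE, edgeR adjusted p = 1.08e-07) and 1.72-fold in CMS (-0.78 ± 0.0467, adjusted p = 2.23e-07). The overlapping AC130391 went the same way, at 13.8 ± 2.1 FPKM in SSt, 7.82 ± 0.049 in FBS and 8.26 ± 1.08 in CMS (SD, n = 3), and without strand the reads of the pair cannot be told apart.

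Hist2h4a (ENSRNOG00000045840) encodes histone H4 and showed the widest fall. Its SSt libraries held 9.6, 10.7 and 4.67 FPKM, its FBS libraries 1.68, 1.74 and 2.36, and its CMS libraries 2.16, 1.24 and 1.92. The SSt libraries were spread but all lay above the others. The gene fell 4.4-fold in FBS (log2 -2.14 ± 0.347, edgeR adjusted p = 0.000343) and 4.7-fold in CMS (-2.23 ± 0.349, adjusted p = 0.000264). These levels rest on 24 to 245 counts per library. Hist2h4, Hist1h4b and Hist1h2ao lie on the same chromosome and strand in the tables with the same span of 312 bp, and further rows are described as H4-like. Whether reads were split among these rows was not tested, so the values of this single gene are uncertain.

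Hist2h2be (ENSRNOG00000045753) is another H2B gene, with the octamer shown above, and it went the other way. SSt libraries were at 1.58, 0.596 and 0.857 FPKM, FBS libraries at 1.83, 2.78 and 4.37, and CMS libraries at 2.25, 2.05 and 3.81. The groups did not overlap, although the lowest FBS library was close to the highest SSt library. It rose 2.84-fold in FBS (log2 1.51 ± 0.446, edgeR adjusted p = 0.0132) and 2.59-fold in CMS (1.37 ± 0.447, adjusted p = 0.0205), on 17 to 102 counts per library. The filter favoured such a rise for this gene, and with no filter both calls held. The FBS call was lost without FBS replicate 3 (log2 1.13, adjusted p = 0.0557). The CMS call was lost without CMS replicate 3 (1.04, adjusted p = 0.0821), SSt replicate 2 (1.1, adjusted p = 0.0709) or SSt replicate 3 (1.27, adjusted p = 0.0643).

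The 2 near-identical H2A genes were less clear. Hist2h2aa3 was at 9.44, 11.4 and 8.91 FPKM in SSt, 7.54, 2.89 and 7.09 in FBS and 6.18, 8.13 and 5.38 in CMS, and it passed in neither comparison (log2 -0.80 ± 0.327, edgeR adjusted p = 0.054 in FBS, and -0.62 ± 0.325, adjusted p = 0.12 in CMS). Hist2h2aa2 was at 8.87, 10.2 and 8.38 FPKM in SSt, 6.5, 13.0 and 6.12 in FBS and 4.66, 7.11 and 4.95 in CMS. In WT FBS replicate 2 the first of the pair was at its lowest and the second at its highest of all 18 libraries. Hist2h2aa2 fell in CMS (log2 -0.74 ± 0.297, adjusted p = 0.0489), a call lost without CMS replicate 1 or 3 or any SSt library (-0.81 to -0.63, adjusted p = 0.0655 to 0.138), and also with upper-quartile scaling (adjusted p = 0.0651), an FPKM minimum of 5 (0.0513) or no filter (0.0567). It did not pass in FBS (-0.14 ± 0.293, adjusted p = 0.703), but did without WT FBS replicate 2 (-0.57, adjusted p = 0.0491). Hist1h3b, an H3 gene near 1 FPKM, was at 1.22, 1.43 and 1.31 FPKM in SSt, 0.705, 0.483 and 0 in FBS and 1.29, 0.795 and 0.637 in CMS, and passed in neither (log2 -1.70 ± 0.724, adjusted p = 0.0614 in FBS, and -0.56 ± 0.678, adjusted p = 0.491 in CMS).

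Neither replication-dependent linker gene tested in WT, H1f2 or H1f5, passed. H1f2 (ENSRNOG00000054978), a somatic H1 gene, was at 86.8, 82.7 and 68.5 FPKM in SSt, 69.4, 75.0 and 70.2 in FBS and 72.4, 80.5 and 77.2 in CMS, and the groups overlapped. Its log2 fold change was -0.18 ± 0.081 in FBS (edgeR adjusted p = 0.0687) and -0.07 ± 0.081 in CMS (adjusted p = 0.446). H1f5 was at 1.03 to 1.43 FPKM in SSt, 0.362 to 0.895 in FBS and 0.485 to 0.967 in CMS, which did not overlap with SSt but did not pass (log2 -0.95 ± 0.389, adjusted p = 0.0531, and -0.93 ± 0.39, adjusted p = 0.0586).

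The 3 H3f3 genes fell by small amounts with little spread. H3f3b was at 494, 477 and 472 FPKM in SSt, 410, 413 and 406 in FBS and 392, 393 and 400 in CMS. It fell 1.2-fold in FBS (log2 -0.27 ± 0.028, edgeR adjusted p = 1.47e-05) and 1.24-fold in CMS (-0.31 ± 0.0281, adjusted p = 5.07e-06). H3f3a was at 177, 183 and 175 FPKM in SSt, 142, 149 and 156 in FBS and 136, 142 and 146 in CMS, and fell 1.23-fold (-0.30 ± 0.0407, adjusted p = 0.000108) and 1.28-fold (-0.36 ± 0.0407, adjusted p = 2.59e-05). H3f3c was at 64.9, 60.5 and 61.2 FPKM in SSt, 51.6, 51.5 and 50.5 in FBS and 51.6, 59.0 and 54.6 in CMS, and fell by 0.32 and 0.20 on the log2 scale (SE 0.0499 for each, adjusted p = 0.000287 and 0.00512). In none of the 3 genes did an SSt library overlap with FBS or CMS. The share of all genes without such overlap was not taken, and 66.4% and 66.8% of all genes passed in these comparisons. H1f10, the replication-independent linker histone, was at 6.08 to 7.25 FPKM in SSt, 3.76 to 7.5 in FBS and 4.24 to 4.53 in CMS. It fell in CMS (log2 -0.63 ± 0.226, adjusted p = 0.0316), a call lost without any of the CMS libraries or without SSt replicate 1 or 3 (-0.65 to -0.57, adjusted p = 0.0635 to 0.0843), and did not pass in FBS (-0.26 ± 0.224, adjusted p = 0.334).

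In WT, the CMS values of most histone genes lay near the FBS values. Between CMS and SSt in WT, 7 histone genes were lower (32.3% of all genes were), 1 was higher (34.6% of all genes) and 4 did not pass, so that 66.7% passed in either direction, against 66.8% of all genes. Without CMS replicate 3, 5 passed. The FBS and CMS comparisons share the SSt libraries. Set directly against FBS, CMS changed 0 of the 12 histone genes by edgeR, where 8.94% of all genes passed. DESeq2 also gave 0. At an unadjusted p under 0.05 there was 1, H3f3c (log2 0.12 ± 0.05, 95% interval 0.02 to 0.21, adjusted p = 0.198). The intervals were narrow for abundant genes, from -0.10 to 0.01 for H3f3b, -0.14 to 0.02 for H3f3a, -0.01 to 0.18 for Hist1h2bq and -0.05 to 0.27 for H1f2. They were wide for sparse ones, and Hist1h3b had a log2 value of 1.15 ± 0.737 (adjusted p = 0.39).

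**Figure D2:**
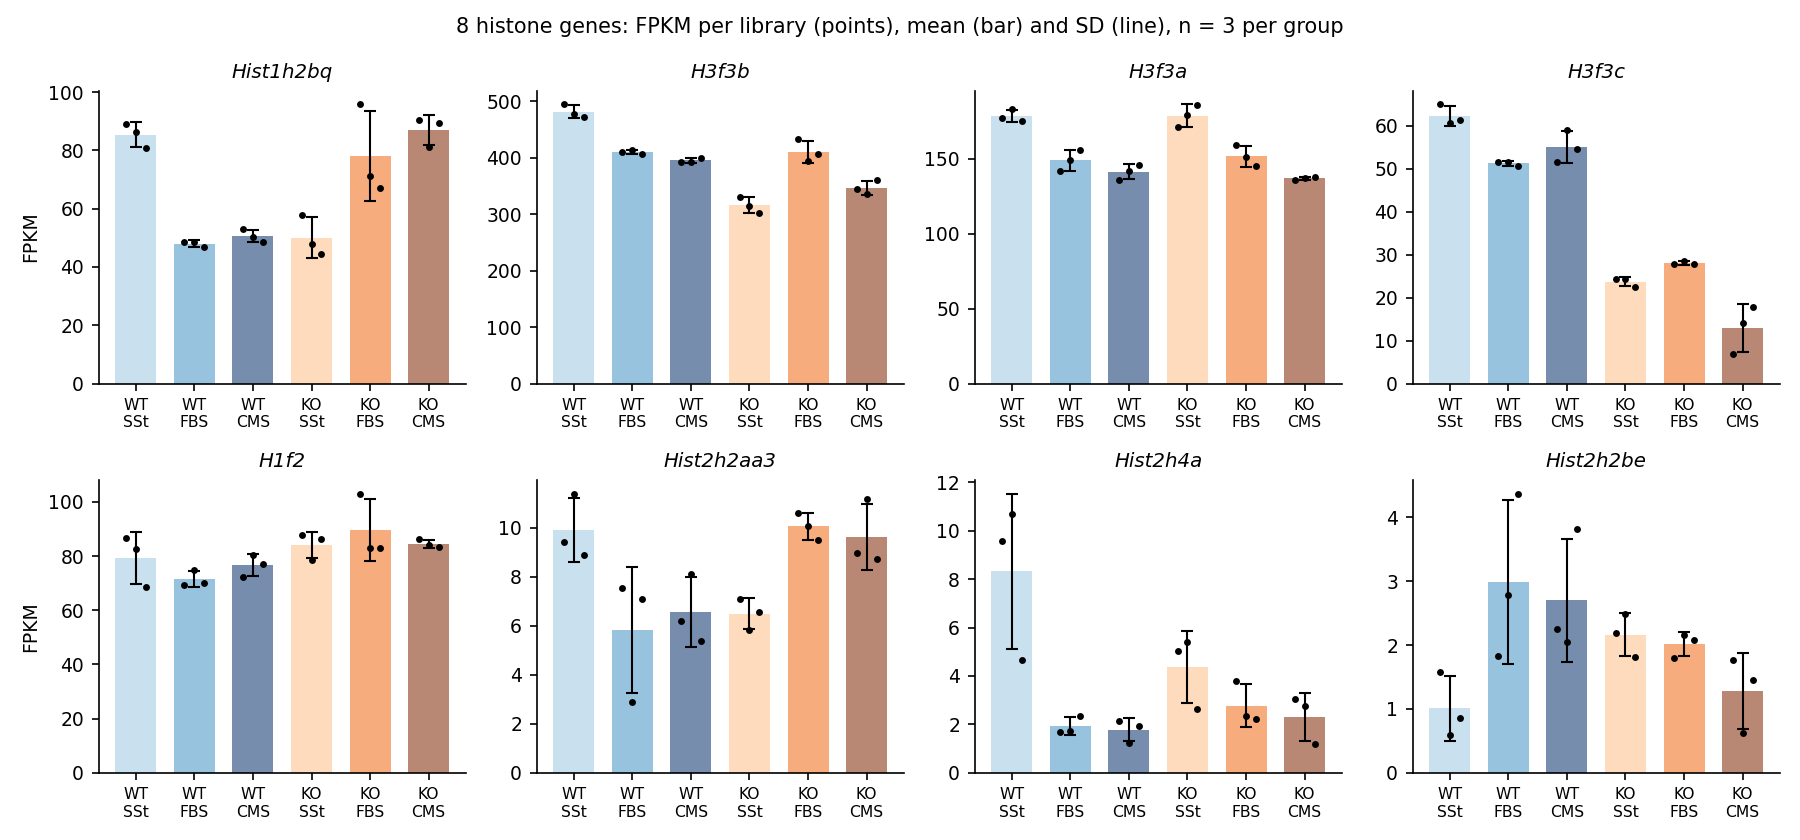
FPKM of 8 histone genes in the 6 groups, with 1 point per library, bars for the mean and lines for the SD (n = 3 libraries per group). The vertical axes start at 0 and differ between panels. Hist1h2bq is high in WT SSt, KO FBS and KO CMS and low in the other 3 groups, H3f3a falls from SSt in both genotypes, and H3f3c is lower in every KO library than in any WT library.

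The same question in KO cells gave another picture. Between FBS and SSt in KO, 4 of the 12 tested histone genes were higher (30.3% of all 12888 genes were), 2 were lower (29.5% of all genes) and 6 did not pass, and 59.8% of all genes passed in either direction. Between CMS and SSt, 4 were higher (30.8% of all genes), 3 were lower (30.7% of all genes) and 5 did not pass, so that 58.3% passed, against 61.5% of all genes. The median log2 fold change of the 12 was 0.05 in FBS and -0.08 in CMS. Hist1h2bq, Hist2h2aa2, Hist2h2aa3 and H3f3b rose in both, H3f3a fell in both, as did Hist1h3b, which the filter favoured, and H3f3c fell in CMS.

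Hist1h2bq was at 58.0, 48.0 and 44.3 FPKM in KO SSt, at 95.8, 71.2 and 67.2 in KO FBS and at 90.4, 81.1 and 89.5 in KO CMS. Every SSt library lay below every FBS and CMS library. The gene rose 1.63-fold in FBS (log2 0.70 ± 0.156, edgeR adjusted p = 0.00411) and 1.87-fold in CMS (0.91 ± 0.157, adjusted p = 0.000937). Without KO FBS replicate 1, the highest FBS library, the FBS value was 0.51 ± 0.11 (adjusted p = 0.0041). AC130391 was at 7.21 ± 0.114 FPKM in SSt, 11.9 ± 3.88 in FBS and 12.7 ± 1.86 in CMS (SD, n = 3), again in the same direction.

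The H2A pair rose as well. Hist2h2aa2 was at 5.72, 5.21 and 5.25 FPKM in SSt, 9.6, 8.83 and 8.52 in FBS and 6.71, 8.82 and 7.79 in CMS. It rose 1.73-fold in FBS (log2 0.79 ± 0.159, edgeR adjusted p = 0.00233) and 1.56-fold in CMS (0.64 ± 0.159, adjusted p = 0.00711). Hist2h2aa3 was at 7.09, 5.85 and 6.57 FPKM in SSt, 10.6, 10.1 and 9.49 in FBS and 8.96, 11.2 and 8.73 in CMS, and rose by 0.68 ± 0.159 (adjusted p = 0.00515) and 0.67 ± 0.159 (adjusted p = 0.00537) on the log2 scale. Neither gene's SSt libraries overlapped with the others. Without KO FBS replicate 1 the FBS values were 0.72 ± 0.182 and 0.62 ± 0.182 (adjusted p = 0.0083 and 0.017).

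Other core genes did not rise in KO. Hist1h3b was at 2.34, 1.59 and 1.49 FPKM in SSt, 0.551, 0.763 and 0.321 in FBS and 0.666, 0.906 and 0.604 in CMS. This gene entered the KO fit through its SSt libraries alone, so the filter favoured a lower level in FBS and CMS. The log2 fold change was -1.63 ± 0.36 (edgeR adjusted p = 0.00398) and -1.16 ± 0.351 (adjusted p = 0.018), on 8 to 60 counts per library. With no filter the FBS call held and the CMS call was lost (-1.17, adjusted p = 0.0632). The latter was also lost without CMS replicate 1 or 3 or SSt replicate 1 (-1.11, -1.05 and -0.93, adjusted p = 0.051, 0.0612 and 0.0674). Hist2h4a was at 5.03, 5.41 and 2.65 FPKM in SSt, 3.79, 2.33 and 2.21 in FBS and 3.03, 2.75 and 1.19 in CMS, and did not pass (log2 -0.59 ± 0.42, adjusted p = 0.259, and -0.80 ± 0.423, adjusted p = 0.132). Hist2h2be was at 1.81 to 2.48 FPKM in SSt, 1.8 to 2.16 in FBS and 0.617 to 1.77 in CMS, and did not pass either (log2 -0.05 ± 0.339, adjusted p = 0.91, and -0.63 ± 0.345, adjusted p = 0.145).

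H1f2 was at 87.7, 78.6 and 86.2 FPKM in KO SSt, 103, 83.1 and 83.1 in FBS and 86.2, 84.1 and 83.4 in CMS, and passed in neither comparison (log2 0.16 ± 0.101, edgeR adjusted p = 0.211, and 0.12 ± 0.101, adjusted p = 0.345). Its highest level was again in KO FBS replicate 1. Without that library the FBS value was 0.02 ± 0.0605 (adjusted p = 0.786). H1f1, a linker gene of low level, was at 1.68, 1.37 and 1.82 FPKM in SSt, 1.69, 0.832 and 0.349 in FBS and 1.02, 1.52 and 1.24 in CMS. The FBS libraries were widely spread, and the one in the range of SSt was replicate 1. The FBS value of H1f1 did not pass with all libraries (log2 -0.68 ± 0.469, edgeR adjusted p = 0.243) and did without that library (-1.38 ± 0.383, adjusted p = 0.0136), which took the genes that passed from 6 to 7.

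Among replacement genes, H3f3b and H3f3a moved apart in KO. H3f3b was at 330, 314 and 302 FPKM in SSt, 432, 394 and 406 in FBS and 344, 335 and 360 in CMS. It rose 1.36-fold in FBS (log2 0.44 ± 0.0629, edgeR adjusted p = 0.000331) and 1.18-fold in CMS (0.24 ± 0.0629, adjusted p = 0.00826). With limma on log2 FPKM the CMS value was 0.13 and did not pass (adjusted p = 0.0544 and 0.0548 at the pair of pseudocounts). Without KO FBS replicate 1 the FBS value was 0.38 ± 0.0538 (adjusted p = 0.000346). H3f3a was at 171, 179 and 186 FPKM in SSt, 159, 151 and 145 in FBS and 136, 137 and 138 in CMS. It fell by 0.17 ± 0.0552 (adjusted p = 0.0236) and 0.27 ± 0.0553 (adjusted p = 0.00244) on the log2 scale. With the replicate number as a block the FBS value of H3f3a did not pass (log2 -0.17, adjusted p = 0.052), and it was also lost without FBS or SSt replicate 2 or 3 (-0.18 to -0.13, adjusted p = 0.0621 to 0.0937).

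Of the 12 histone genes tested in KO, H3f3c (ENSRNOG00000032401) was the one that passed between stretch and serum. It was at 24.3, 24.4 and 22.4 FPKM in SSt, 27.9, 28.6 and 27.8 in FBS and 6.77, 14.0 and 17.7 in CMS. The CMS libraries were widely spread and all below the others, with replicate 1 the lowest. CMS was 2.1-fold lower than FBS (log2 -1.07 ± 0.28, edgeR adjusted p = 0.0359) and 1.7-fold lower than SSt (-0.77 ± 0.279, adjusted p = 0.0386), and FBS did not differ from SSt past the threshold (0.31 ± 0.276, adjusted p = 0.368). H3f3c was thus 1 of 12 histone genes (8.33%) that passed between CMS and FBS in KO, against 14.8% of all genes, of which 6.73% were higher and 8.09% lower. The call depended on single libraries, since it was lost without CMS replicate 2 (-1.14, adjusted p = 0.0878) or FBS replicate 2 (-1.07, adjusted p = 0.0897) or 3 (-1.09, adjusted p = 0.0847), and with the replicate number as a block (log2 -1.13, adjusted p = 0.0591). The call against SSt was lost without CMS replicate 2 or any SSt library (-0.83 to -0.75, adjusted p = 0.066 to 0.0848). Both calls held without CMS replicate 1. Over 15 alternatives the log2 value ranged from -1.38 to -0.77 against FBS and from -1.08 to -0.46 against SSt. Without KO FBS replicate 1, 2 genes passed between CMS and FBS, H3f3c (-1.06 ± 0.311, adjusted p = 0.0396) and Hist1h2bq, higher in CMS (0.40 ± 0.112, adjusted p = 0.0337). H3f3b was 0.20 ± 0.0628 lower in CMS than in FBS on the log2 scale without passing (adjusted p = 0.0698), but passed with DESeq2, limma at both pseudocounts, upper-quartile scaling and an FPKM minimum of 5 (smallest adjusted p = 0.0206).

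**Figure D3:**
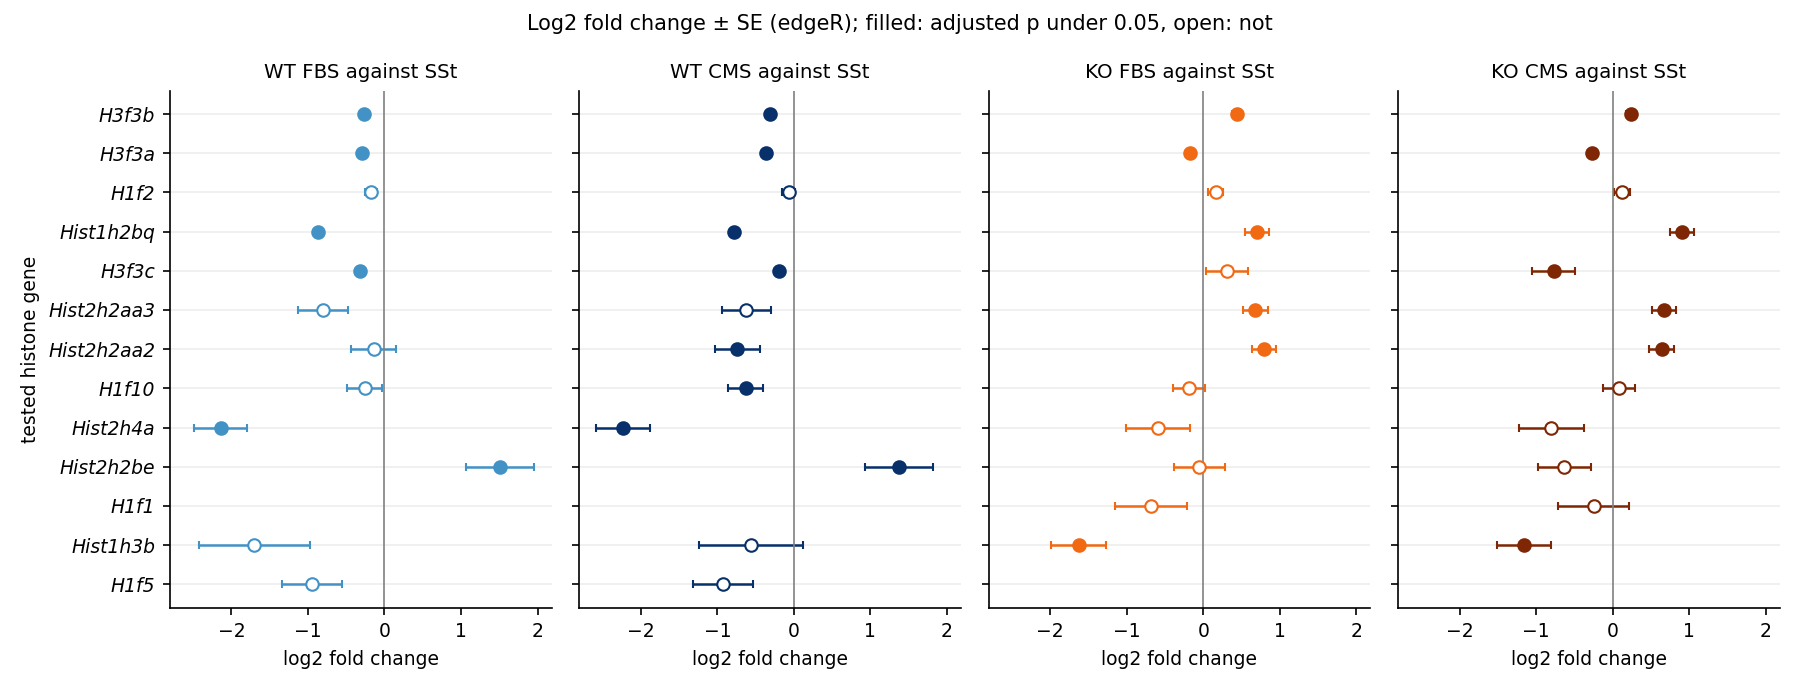
Log2 fold change with its SE for each histone gene tested in WT or KO, in FBS and CMS against SSt (edgeR, 3 libraries per group). Filled points passed an adjusted p of 0.05 and open points did not, and a gene without a point was not tested in that genotype. Hist1h2bq, H3f3b and both Hist2h2aa genes lie left of 0 in WT and right of 0 in KO, and H3f3a lies left of 0 in all 4 panels.

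Whether the responses differed between genotypes was tested directly, as the KO response minus the WT response in the fit of all 18 libraries. For FBS, 5 of 15 tested histone genes passed, all with the higher response in KO (33.3%). Of the 13317 genes tested 35.7% passed, 18.5% with the higher and 17.2% with the lower response. For CMS, 4 histone genes passed with the higher and 1 with the lower response in KO, against 21.6% and 23.2% of all genes and 44.8% in either direction.

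Hist1h2bq differed by 1.58 ± 0.172 for FBS (log2, 95% interval 1.24 to 1.92, edgeR adjusted p = 1.13e-05) and by 1.69 ± 0.172 for CMS (1.35 to 2.03, adjusted p = 2.91e-06). In each of 20 alternative settings the call held, with values from 1.38 to 1.70 for FBS and from 1.54 to 1.81 for CMS. H3f3b differed by 0.72 ± 0.0684 for FBS (0.59 to 0.86, adjusted p = 3.71e-06) and by 0.56 ± 0.0684 for CMS (0.42 to 0.69, adjusted p = 1.29e-05). Without KO FBS replicate 1, the FBS differences were 1.38 ± 0.118 for Hist1h2bq (adjusted p = 7.84e-07) and 0.66 ± 0.0565 for H3f3b (adjusted p = 7.96e-07). Both genes therefore fell in WT, rose in KO and passed the test of the difference.

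Hist2h2aa3 differed by 1.49 ± 0.384 for FBS (edgeR adjusted p = 0.00717) and 1.29 ± 0.383 for CMS (adjusted p = 0.0124). Hist2h2aa2 differed by 0.94 ± 0.349 for FBS (adjusted p = 0.0466) and 1.38 ± 0.351 for CMS (adjusted p = 0.00471), and the FBS call was lost under 13 of 20 alternatives, among them each library of these groups left out other than WT FBS replicate 2 (0.75 to 1.0, adjusted p = 0.0534 to 0.11). Hist2h2be had the lower response in KO for CMS (-1.99 ± 0.595, 95% interval -3.16 to -0.83, adjusted p = 0.013) and did not pass for FBS (-1.54 ± 0.589, adjusted p = 0.0537). Hist2h4a fell more in WT, by a difference of 1.56 ± 0.567 for FBS (adjusted p = 0.0431), which was lost under 10 alternatives, among them KO FBS replicate 1, KO SSt replicates 1 and 3, and WT FBS and WT SSt replicates 1 and 2 left out (1.24 to 1.68, adjusted p = 0.0508 to 0.12), and 1.44 ± 0.569 for CMS (adjusted p = 0.0513).

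For other genes no difference in response passed. H3f3a, which fell in both genotypes, differed by 0.14 ± 0.0703 for FBS (95% interval up to 0.27, edgeR adjusted p = 0.151) and 0.09 ± 0.0703 for CMS (-0.04 to 0.23, adjusted p = 0.302). H1f2 differed by 0.35 ± 0.137 (0.09 to 0.62, adjusted p = 0.0562) and 0.19 ± 0.137 (-0.07 to 0.46, adjusted p = 0.27). H3f3c differed by 0.63 ± 0.295 (adjusted p = 0.109) and -0.56 ± 0.296 (adjusted p = 0.139), and H1f10 by 0.72 ± 0.313 for CMS (adjusted p = 0.0762).

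The genotypes were also compared within each treatment. In SSt, 5 of 15 tested histone genes were lower in KO than in WT and 0 were higher, against 23.2% and 24.2% of all genes (33.3% and 47.4% in either direction). H3f3c was 2.76-fold lower (log2 -1.47 ± 0.212, edgeR adjusted p = 4.93e-05), Hist1h2bq 1.79-fold lower (-0.84 ± 0.122, adjusted p = 4.93e-05), Hist2h2aa2 1.79-fold lower (-0.84 ± 0.248, adjusted p = 0.0119) and H3f3b 1.61-fold lower (-0.68 ± 0.0485, adjusted p = 4.91e-08). Hist2h4a was lower by 1.0 ± 0.394 on the log2 scale (-1.0, adjusted p = 0.0482), with overlapping libraries and a call lost under 9 alternatives, among them each KO SSt library and WT SSt replicates 1 and 2 left out (-1.18 to -0.74, adjusted p = 0.053 to 0.177). Hist2h2aa3 (-0.68 ± 0.271, adjusted p = 0.0521) and Hist2h2be (1.0 ± 0.423, adjusted p = 0.0641) missed the threshold.

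In FBS, 4 histone genes were higher in KO and 1 was lower, against 13.5% and 12.3% of all genes (33.3% and 25.7% in either direction). Hist1h2bq was 1.67-fold higher (log2 0.74 ± 0.122, edgeR adjusted p = 0.000436), H1f1 3.63-fold (1.86 ± 0.436, adjusted p = 0.00553), Hist2h2aa3 1.76-fold (0.82 ± 0.272, adjusted p = 0.0386) and H1f2 1.29-fold (0.37 ± 0.0967, adjusted p = 0.0117). For H1f1 the filter favoured a higher level in KO. The gene was at 0.154, 0.269 and 0.355 FPKM in WT and 1.69, 0.832 and 0.349 in KO, so the groups overlapped and the highest value was that of KO FBS replicate 1. Without that library H1f1 was at 1.16 ± 0.366 (adjusted p = 0.0343), and in a fit of only the 2 groups compared its call was lost (1.86, adjusted p = 0.109). Without KO FBS replicate 1, 3 genes passed, Hist2h2aa3 (0.75 ± 0.305, adjusted p = 0.0957) and H1f2 (0.23 ± 0.0808, adjusted p = 0.0563) no longer did, and Hist1h2bq was at 0.54 ± 0.0875 (adjusted p = 0.000432). Hist2h2aa3 was also lost without KO replicate 2 (0.83, adjusted p = 0.0684) or 3 (0.87, adjusted p = 0.0501) or WT replicate 2 (0.49, adjusted p = 0.0891), with no filter (0.81, adjusted p = 0.0575), with the replicate block (0.82, adjusted p = 0.057) and with only the groups compared (0.81, adjusted p = 0.19). The last setting also ended the call of H1f2 (0.36, adjusted p = 0.0835). The lower gene was H3f3c (-0.83 ± 0.21, adjusted p = 0.0087). H3f3b, which differed in SSt, was at 0.04 ± 0.0483 (adjusted p = 0.613).

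In CMS, 3 histone genes were higher in KO and 1 was lower, against 18.7% and 21.0% of all genes (26.7% and 39.7% in either direction). Hist1h2bq was 1.8-fold higher (log2 0.85 ± 0.122, edgeR adjusted p = 6.57e-05), H1f10 1.87-fold (0.90 ± 0.223, adjusted p = 0.00477) and H1f1 2.11-fold (1.07 ± 0.409, adjusted p = 0.0488). The call of H1f1, which the filter favoured, was lost under 9 alternatives, among them each WT library and KO replicates 2 and 3 left out (0.93 to 1.13, adjusted p = 0.0893 to 0.135), the replicate block (1.08, adjusted p = 0.0671) and no filter (1.09, adjusted p = 0.0778). H3f3c was 4.08-fold lower (-2.03 ± 0.217, adjusted p = 4.78e-06), and H3f3b was at -0.13 ± 0.0483 (adjusted p = 0.0518). The order of group means for Hist1h2bq was therefore KO CMS (87.0 ± 5.12 FPKM, SD, n = 3), WT SSt (85.4 ± 4.27), KO FBS (78.1 ± 15.5), WT CMS (50.6 ± 2.14), KO SSt (50.1 ± 7.11) and WT FBS (48.0 ± 1.05). The first 3 groups overlapped among themselves, as did the last 3.

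Replication-dependent histone mRNA is tied to S phase, so the genes that act with it were followed in the same fits. In WT, 21 of 23 S-phase genes fell and 1 rose from SSt to FBS (median log2 -0.96), and 21 fell and 1 rose from SSt to CMS (-1.21). In KO, FBS lowered 22 and raised 0 (-1.91), and CMS lowered all 23 (-2.69). Of all genes, 32.7% and 32.3% were lower in the WT comparisons and 29.5% and 30.7% in those of KO, with medians between 0 and 0.02. Against SSt, Mcm6 and Mcm7, subunits of the replicative helicase, fell by 1.23 ± 0.059 and 1.09 ± 0.0446 in WT FBS and by 3.00 ± 0.221 and 2.63 ± 0.121 in KO CMS on the log2 scale. Tk1, thymidine kinase, fell by 1.15 ± 0.057 in WT FBS and by 3.77 ± 0.342 in KO CMS. Falls were slighter for others in WT, where Pcna, the sliding clamp, fell by 0.17 ± 0.0422 and Mki67, a marker of cycling cells, by 0.23 ± 0.043 in FBS (edgeR adjusted p = 0.00606 and 0.000935).

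The S-phase genes and Hist1h2bq moved together in WT and apart in KO. Mki67 was at 24.2, 25.3 and 26.1 FPKM in WT SSt, 21.2, 22.7 and 22.2 in FBS and 23.3, 21.4 and 22.4 in CMS. In KO it was at 37.3, 44.2 and 44.7 FPKM in SSt, 5.06, 14.8 and 17.1 in FBS and 5.14, 3.84 and 3.49 in CMS. KO FBS replicate 1, the FBS library with the most Hist1h2bq, had the least Mki67. Top2a, topoisomerase II, fell from 50.4 ± 4.62 FPKM in KO SSt to 8.15 ± 3.97 in FBS and 3.08 ± 0.835 in CMS (SD, n = 3). The difference in response between KO and WT was -3.03 ± 0.4 for Mki67 and -2.70 ± 0.384 for Top2a under CMS (adjusted p = 2.48e-05 and 4.75e-05), opposite in sign to the 1.69 of Hist1h2bq. Of the 23 S-phase genes, 18 had the lower response in KO for FBS and 23 for CMS, and 0 the higher in either, where 17.2% and 23.2% of all genes had the lower. In SSt, 18 of the 23 were higher in KO than in WT (24.2% of all genes) and 0 lower. Of the 15 tested histone genes, 5 were lower there (3 core and 2 replacement genes), as were 23.2% of all genes.

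**Figure D4:**
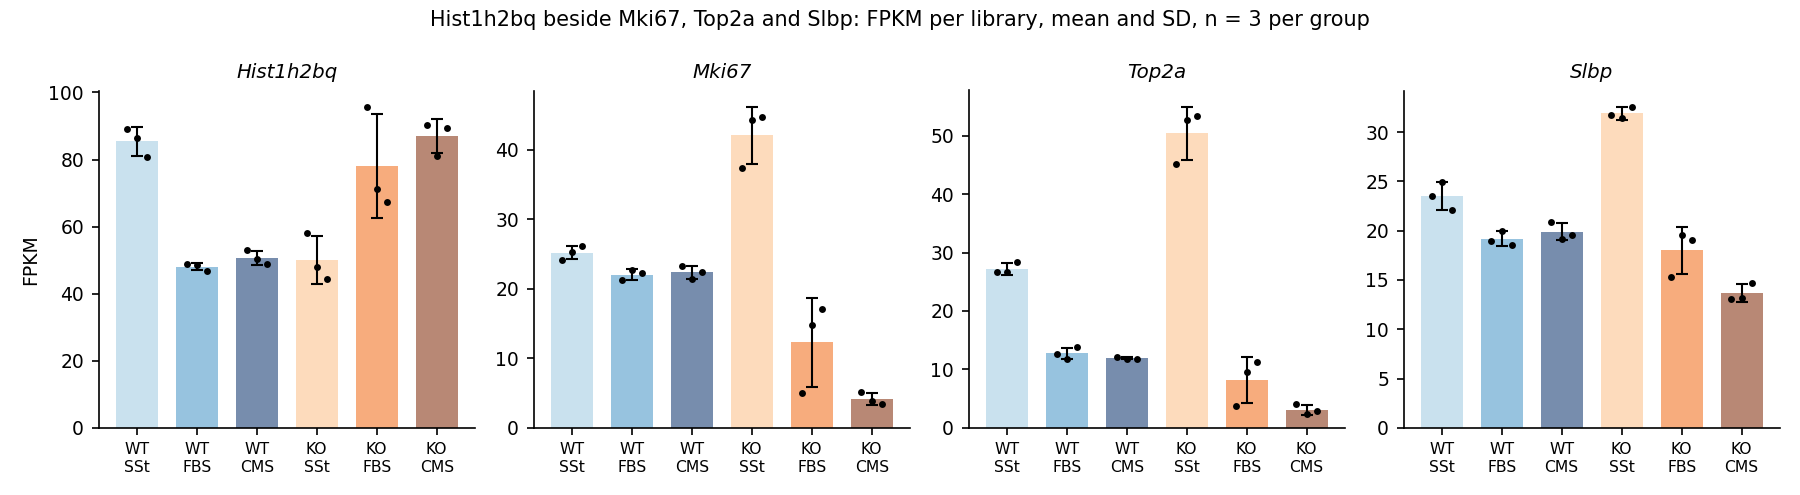
FPKM of Hist1h2bq, Mki67, Top2a and Slbp per library (points), with the mean (bar) and SD (line, n = 3 per group), each axis starting at 0. All 4 genes are higher in WT SSt than in WT FBS and CMS. In KO the 3 companions are highest in SSt, where Hist1h2bq is lowest.

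Genes that process histone mRNA were followed too. Of 19 such genes 18 were tested. In WT, 9 fell and 3 rose in FBS (median log2 -0.28) and the counts were the same in CMS (-0.24). In KO, 10 fell and 4 rose in FBS (-0.29), and 9 fell and 3 rose in CMS (-0.18). Lower levels were found for 29.5% to 32.7% of all genes in these comparisons, and higher ones for 30.3% to 34.6%. Slbp, which binds the stem-loop of histone mRNAs, was at 23.5 ± 1.44 FPKM in WT SSt, 19.2 ± 0.709 in FBS and 19.9 ± 0.918 in CMS, and at 31.9 ± 0.654 in KO SSt and 13.7 ± 0.868 in KO CMS (SD, n = 3), with 15.3, 19.6 and 19.1 FPKM in the KO FBS libraries. It fell in all 4 comparisons with SSt, by 0.33 ± 0.0572 in WT FBS and by 1.11 ± 0.0877 in KO CMS on the log2 scale (edgeR adjusted p = 0.000574 and 7.79e-06). Eri1, an exonuclease of histone mRNA decay, fell by 0.52 ± 0.0518 in WT FBS and 0.83 ± 0.0621 in KO FBS, and Cstf2, a cleavage factor, by 0.90 ± 0.0873 and 1.19 ± 0.123. Ice1, a subunit of the little elongation complex, had the smallest adjusted p of the list in WT FBS (1.31e-07) and rose in all 4 comparisons, by 0.60 ± 0.0335 and 0.62 ± 0.0335 in WT FBS and CMS and by 0.32 ± 0.0708 and 0.24 ± 0.0707 in KO. Lsm1, of the decay ring that binds oligouridylated ends, rose by 0.59 ± 0.0554 in WT FBS and 0.97 ± 0.0659 in KO FBS.

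Most histone chaperones and deposition factors fell. Of 33, 24 fell and 3 rose in WT FBS (median log2 -0.39), 23 and 2 in WT CMS (-0.28), 27 and 1 in KO FBS (-0.79) and 25 and 1 in KO CMS (-0.73), where 29.5% to 32.7% of all genes fell and 30.3% to 34.6% rose. Chaf1a, the large subunit of the factor that deposits new H3 and H4 behind the fork, fell by 1.06 ± 0.0559 in WT FBS, 1.28 ± 0.0563 in WT CMS, 1.93 ± 0.211 in KO FBS and 2.70 ± 0.217 in KO CMS on the log2 scale. Hat1, which acetylates newly made H4, fell by 0.80 ± 0.0489, 0.85 ± 0.0489, 1.51 ± 0.112 and 1.97 ± 0.114 in the same 4 comparisons, all past the edgeR threshold. Mcm2, a helicase subunit that binds H3 and H4 and also stands in the S-phase list, fell by 0.88 ± 0.0454, 1.09 ± 0.0456, 1.65 ± 0.175 and 2.19 ± 0.178, and Mms22l, a factor of replication fork repair, by 1.11 ± 0.0715, 1.29 ± 0.0719, 2.07 ± 0.267 and 3.15 ± 0.281.

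Further rows described as histones but named otherwise, 41 in number and picked after the tables were seen, fell in part. Of the 20 tested in WT, 12 fell and 1 rose in FBS as in CMS, and of the 19 tested in KO, 7 fell in FBS and 6 in CMS and 0 rose. Of all genes, 32.7% and 32.3% fell in WT FBS and CMS and 29.5% and 30.7% in KO FBS and CMS. In these comparisons 30.3% to 34.6% of all genes rose. Between CMS and FBS in KO, H2ax (-0.30 ± 0.0859, edgeR adjusted p = 0.0494) and H2az2 (-0.26 ± 0.0726, adjusted p = 0.0479) were lower, so that H3f3c was not the only histone row to pass there. These were 2 of the 19 tested rows, and 8.09% of all genes were lower. In SSt, 4 of 24 tested rows were higher in KO than in WT and 2 were lower, against 24.2% and 23.2% of all genes. The lower ones were LOC684797 (-0.86 ± 0.33, adjusted p = 0.0438) and a row of LOC100912564 (-0.70 ± 0.159, adjusted p = 0.00222). The higher ones were H2az1 (log2 0.70 ± 0.112, adjusted p = 0.00012), H2ax (0.66 ± 0.0781, adjusted p = 7.1e-06), H2az2 (0.43 ± 0.102, adjusted p = 0.00313) and Macroh2a2 (1.03 ± 0.178, adjusted p = 0.000248), which all encode H2A variants.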

How the data were processed

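RNA-seq of 18 libraries was used, 3 in each of 6 groups, deposited as a WT and a KO table of 32623 rows with 9 libraries each. Per the file headers, the authors deposited whole-number counts of reads per gene, not normalised, and beside them FPKM, made by the authors from these counts by transcript length and library total, with a small constant in place of 0, which was read as 0. In the submitters' processing notes stand Bowtie 0.12.2 and mm10 (mouse), although the identifiers are those of rat Ensembl genes. For the tables no source here gives the counting tool, strand setting or build, so no table coordinates are printed. Promoters came from RefSeq GRCr8 by symbol, chromosome and strand.

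Groups came from the labels. Counts were tested with edgeR 4.0.16 (TMM scaling, quasi-likelihood F test, two-sided), in a fit of 9 libraries for each genotype and of all 18 for KO against WT and for the difference between responses, among genes with FPKM of at least 1 in at least 3 fitted libraries. P-values were adjusted by Benjamini-Hochberg over all genes tested. SE came from the F statistic. The 95% intervals were made from this SE by the normal distribution, so they are narrower than the F test implies and can exclude 0 where its p does not pass. The test was tested on simulated data. Genes of the companion lists were named as the 4 with the smallest adjusted p in WT FBS against SSt, plus Slbp, Pcna and Mki67. All tested members were open to naming, since the rule takes the 3 with the smallest adjusted p and the 3 most abundant in each class. That rule had put all H1f names among variants. The tables use current symbols, so H1f1, H1f2, H1f4 and H1f5 were classed as replication-dependent and H1f6, H1f7 and H1f8 as germ-line. A marker of the blood cell list is not reported here. The members and lists were chosen with earlier results of these data known.

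Replicate numbers were shared between groups but did not pair the libraries, and every pair of libraries differed beyond counting noise. Alternatives were DESeq2 1.42.0, limma 3.58.1 on log2(FPKM + 1) and log2(FPKM + 0.1), and upper-quartile or RLE scaling in edgeR. Further ones were no filter, an FPKM minimum of 5, a fold of at least 2, only the groups compared, the replicate number as a block, and each library left out. Depth was 56.08 to 71.85 M counts, at which genes under 1 FPKM had few counts and wide errors. Fits were run in R 4.3.3, and tables and plots were made with pandas 2.3.3, matplotlib 3.10.9 and numpy 2.4.6 in Python 3.11.15.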

Additional observations from a re-analysis of the deposited data

Results flagged for a closer look

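The response of 6 histone genes differed between KO and WT by the test of the difference itself (edgeR, all 18 libraries, log2 units, KO response minus WT response). Under FBS these were Hist1h2bq (1.58), Hist2h4a (1.56), Hist2h2aa3 (1.49), Hist2h2aa2 (0.94) and H3f3b (0.72). Under CMS they were Hist1h2bq (1.69), Hist2h2aa2 (1.38), Hist2h2aa3 (1.29), H3f3b (0.56) and, with the lower response in KO, Hist2h2be (-1.99). For each treatment 5 of 15 tested histone genes passed (33.3%). Of all genes 35.7% passed for FBS and 44.8% for CMS, so histone genes passed no more often than genes in general. Hist1h2bq and H3f3b passed within each genotype in opposite directions, the H2A pair rose in KO and passed in WT in 1 of 4 cases, Hist2h4a passed in WT only, and Hist2h2be rose in WT and did not pass in KO. Of the FBS differences, that of Hist2h4a was lost under 10 and that of Hist2h2aa2 under 13 of 20 alternatives. The others, and each CMS difference listed, held under all alternatives run other than the fold limit. Both comparisons share the SSt libraries of each genotype, and genotype cannot be told apart from the deposited table.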

How the results depend on the processing

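Of 52 calls of a histone gene in a comparison, 36 held under each alternative run other than the fold limit, 16 were lost under at least 1, and 0 changed direction. Of 34 values recomputed that did not pass, 21 passed under at least 1 alternative. Counts of passing genes that moved by more than 1.5 times were few. No share of all genes was taken under an alternative, so the counts in this section have none beside them. With an FPKM minimum of 5, 5 genes passed in WT CMS against SSt. In KO CMS against FBS, with 1 gene, DESeq2, limma at both pseudocounts, upper-quartile scaling and an FPKM minimum of 5 gave 2, and only the groups compared gave 0. In KO against WT in FBS, only the groups compared gave 2. For the FBS difference between genotypes, no filter gave 3. A fold of at least 2 left 2 genes in WT FBS and in WT CMS against SSt, 1 in KO FBS and in KO CMS against SSt, 2 in KO against WT in SSt, 1 in FBS and 2 in CMS, and 3 for the FBS difference. The cause was not tested, beyond the fewer genes that the higher limits leave.

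The replicate numbers did not pair the libraries: deviations of same-numbered libraries correlated between -0.0473 and 0.0592 in WT (0 of 9 pairs over 0.1) and between -0.21 and 0.158 in KO (1 of 9). With the replicate number as a block, 7, 9 and 0 genes passed in the WT comparisons (FBS with SSt, CMS with SSt, CMS with FBS), 5, 8 and 0 in those of KO, 5, 4 and 4 in KO against WT (SSt, FBS, CMS), and 5 and 6 for the FBS and CMS differences.

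Leaving out each library in turn gave 6 to 9 genes for WT FBS against SSt, 5 to 7 for WT CMS against SSt, 0 to 0 for WT CMS against FBS, 5 to 7 for KO FBS against SSt, 5 to 6 for KO CMS against SSt, 0 to 2 for KO CMS against FBS, 4 to 5, 3 to 5 and 3 to 5 for KO against WT in SSt, FBS and CMS, 3 to 6 for the FBS difference and 5 to 7 for the CMS difference. The FBS difference fell to 3 without KO FBS replicate 1, KO SSt replicate 1 or 3, or WT SSt replicate 2.

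Core gene sums over tested members only were 68.8 FPKM in WT FBS, 69.3 in WT CMS and 110 in KO CMS. Signs turned only for values near 0 that did not pass. On leaving out single libraries, Hist2h2aa2 in WT FBS ranged from -0.57 (which passed) to 0.05, Hist2h2be in KO FBS from -0.17 to 0.06, and H3f3b in KO against WT in FBS from -0.02 to 0.08. H3f3a for the CMS difference was -0.04 with limma at both pseudocounts and -0.01 with upper-quartile scaling, where the median of all genes was -0.18, -0.16 and -0.14 (limma at 0.1 and at 1, upper quartile). Sparse genes, such as Hist2h4a, Hist2h2be, Hist1h3b and H1f1, had wide errors at this depth.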
